A study of Mus musculus with 40 samples.

Results

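The 10 genes described here belong to the oxidative stress response under the transcription factor NRF2: Hmox1, Nqo1, Txnrd1, Gclc, Gclm, Srxn1, Prdx1, Sqstm1, Fth1 and Ftl1. They were taken by symbol, and all 10 are among the 22417 genes of the deposited table. All cells were mouse embryonic fibroblasts of the genotype GADD34-/-. Untreated cells therefore also lacked the product of Ppp1r15a, which directs the removal of phosphate from eIF2alpha, and no wild-type cells are among the samples. Cells were left untreated or received thapsigargin at 1 uM for 0.5, 1, 2 or 4 h. This inhibitor of the SERCA calcium pump provokes stress of the endoplasmic reticulum (ER). All were exposed to cycloheximide, an inhibitor of translation elongation, at 180 uM for 30 s before lysis. Digitonin freed the cytosol, and dodecyl maltoside then solubilised what remained, called the ER fraction. Ribosome footprints, the stretches of mRNA that ribosomes shield from micrococcal nuclease, and mRNA depleted of ribosomal RNA were sequenced from both fractions. This makes 20 groups with replicates 1 and 2, and 39 of 40 libraries hold values, because ER footprints at 0.5 h have replicate 1 only. Whether the replicates are separate cultures is not stated, so each p-value rests on the spread between libraries, which may be technical.

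NRF2, the product of Nfe2l2, is held by KEAP1, which passes it to a ubiquitin ligase. Oxidants and electrophiles modify KEAP1, NRF2 then accumulates, and with a small MAF partner it binds antioxidant response elements in front of its targets, where the repressor BACH1 competes with it. PERK, a kinase switched on by ER stress, can phosphorylate NRF2. Among the targets, Hmox1 degrades haem and Fth1 and Ftl1 store the released iron. Gclc and Gclm form the enzyme that starts glutathione synthesis. Txnrd1 reduces thioredoxin, Prdx1 removes peroxides, and Srxn1 repairs overoxidised peroxiredoxins. Nqo1 reduces quinones, and Sqstm1 (p62) is an autophagy receptor that also binds KEAP1.

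Promoter sequences show which of these genes carry the core of the antioxidant response element close to an annotated start. RefSeq promoters of GRCm38.p6, from 250 bases before to 50 bases after each start, were matched for 8 of the 10 genes, with 11 starts. The core was searched as TGACNNNGC on both strands and was found in 12.4% of 32851 mouse promoters. It was found for 4 of the 8 genes, at 4 of the 11 starts, and each match reads on the strand opposite to the gene. The capitals mark the matched bases, written on the strand of the gene.
Gclm, chr3:122245403-122245451, plus strand: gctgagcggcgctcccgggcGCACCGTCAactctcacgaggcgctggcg
Prdx1, chr4:116685446-116685494, plus strand: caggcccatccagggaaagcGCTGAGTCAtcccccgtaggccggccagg
Txnrd1, chr10:82859094-82859142, plus strand: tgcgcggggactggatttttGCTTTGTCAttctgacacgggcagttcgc
Srxn1, chr2:152105552-152105560, plus strand, 29 bases after the start: GCTAGGTCA
The matches of Gclm, Prdx1 and Txnrd1 begin 134, 133 and 92 bases before the start. The searched windows of Ftl1, Nqo1, Sqstm1 and Fth1, and of the other starts of Txnrd1, held no match. A match is a description of letters and not of binding.

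The deposited values are RPKM, that is reads per kilobase of coding sequence scaled to the depth of the library, with a further weight per fraction and time described with the processing. Some genes are blank in a library, which for footprints means fewer than 4 reads. Where a blank matters, the value that 3 reads would have given in that library is stated as its ceiling. The reads recovered per library numbered 56876 to 9611746 for ER footprints and 122249 to 5389595 for cytosol footprints. For mRNA they numbered 1509 to 162222 (ER) and 48260 to 315703 (cytosol). The deepest libraries are untreated replicate 1 in ER footprints and untreated replicate 2 in cytosol footprints. Ppp1r15a itself was listed in 2 of 39 libraries, with 5 and 14 reads, which checks nothing about the deletion. Of 10 fibroblast markers, 6 were listed in all 19 footprint libraries and Thy1 in none. Summed levels of 6 epithelial and 5 endothelial markers reached at most 0.413 and 1.61 RPKM in footprints, and those of 6 macrophage markers 56.8 RPKM, with Ptprc and Lyz2 in no library. For 6 muscle and neural markers the sum ran from 202 to 2024 RPKM, beside 3495 to 19839 RPKM for the fibroblast markers. Of the 6 muscle and neural markers, Acta1, Nes and Tubb3 were listed in all 19 footprint libraries and Myod1, Des and Gfap in none. The part of these markers in the results was not tested. Apart from the weight per fraction and time, values are relative to the other genes of a library. Fewer cells and less RNA per cell therefore cannot be told apart, and neither can a change in total translation.

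In untreated cells the members spanned a wide range of ribosome occupancy. Prdx1 was highest in cytosol footprints at 1422 ± 214 RPKM (SD, n = 2). Txnrd1 at 169 ± 45.2, Sqstm1 at 116 ± 22.3, Fth1 at 109.6 ± 33.9 and Ftl1 at 77.8 ± 43.2 RPKM followed, and from Txnrd1 to Ftl1 no neighbours in this order differed by more than the sum of their SDs. Hmox1 stood at 40.1 ± 22.2, Gclm at 29.6 ± 5.53 and Nqo1 at 29.5 ± 8.73 RPKM, again within the sum of their SDs. Gclc at 8.52 ± 3.50 RPKM and Srxn1, listed in replicate 2 only at 10.9 RPKM, were lowest.

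Each time was compared with untreated cells by limma on log2(RPKM + 1) across all genes, with an adjusted p under 0.05 as the threshold. In ER footprints 6 of the 10 members were listed in every library needed for the test. Of these 0 rose and 0 fell at 0.5 h, with 1 of 6 at an unadjusted p under 0.05, where 0.266% of all tested genes rose and 0.225% fell. At 1 h 1 of 6 rose (background 5.37% higher, 5.23% lower), at 2 h 1 (11.7% and 5.75%), and at 4 h 2 (21.5% and 6.07%). Over the mean of 1, 2 and 4 h 1 of 6 rose (18.6% and 11.8%), and 0 fell in any of these comparisons. At 4 h the median of all tested genes was itself 0.44 higher on the log2 scale, against -0.19 at 0.5 h, 0.19 at 2 h and 0.14 over the mean of the 3 times. The split of all called genes depended on scaling. In ER footprints at 4 h it was 681 higher and 192 lower as deposited and 515 and 282 under median centring. At 1 h 195 and 190 became 266 and 166 under median centring and 316 and 98 without the weight per fraction. Without that weight 382 and 187 at 2 h became 465 and 122, and 416 and 265 over the mean of the 3 times became 540 and 184.

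In cytosol footprints 0 of 8 members passed at 0.5 h (background 3.41% higher, 0.0373% lower) and 0 of 9 at 1 h (1.40% and 0.0321%), with 1 and 3 members at an unadjusted p under 0.05. At 2 h 1 of 7 fell (5.37% and 4.08%). At 4 h 1 of 6 rose and 1 fell (4.58% and 3.32%), as over the mean of 1, 2 and 4 h (9.43% and 7.15%). The medians of all tested genes lay between -0.15 and -0.03 on the log2 scale. The members tested thus did not all move in 1 direction: Hmox1 and Sqstm1 were called higher and Txnrd1 was called lower. Fth1, Ftl1 and Prdx1, tested in footprints at every time, passed no test of a change in these fits. Nqo1, Gclm and Gclc could be tested only in cytosol footprints, at 2 h or earlier, and passed no test there. Srxn1 could be tested at no time. Calls that a replicate block adds are given at the end. At most 2 of the 6 to 9 members tested passed in a direction, beside background shares of up to 21.5%. A gene that fell below the listing limit in any library compared is in neither of these counts.

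Hmox1 (NM_010442), the inducible haem oxygenase, rose in the footprints of both fractions. In ER footprints its untreated libraries stood at 26.1 and 21.01 RPKM, and the library at 0.5 h at 65.9 RPKM. At 1 h it gave 65.7 and 105.0 RPKM, at 2 h 105.3 and 126.8 RPKM, and at 4 h 116.7 and 86.4 RPKM. Every treated library lay above both untreated ones, and the level was already high in the earliest library. The log2 changes were 1.45 (SE 0.53, limma adjusted p = 0.232) at 0.5 h with its single library, 1.78 (SE 0.44, adjusted p = 0.0198) at 1 h, 2.25 (SE 0.44, adjusted p = 0.00366) at 2 h and 2.05 (SE 0.44, adjusted p = 0.00449) at 4 h. Over the 3 later times the change was 2.03 (SE 0.36, adjusted p = 0.000933), and it passed under 16 of 16 alternatives, as the changes at 2 and 4 h did under 12 of 12. The call at 1 h was lost without untreated replicate 1 (adjusted p = 0.0992), untreated replicate 2 (0.156) or 1 h replicate 2 (0.184). These values rest on 14 to 77 reads in treated libraries, and the counting interval of the 14 reads at 4 h, exact and at 95%, runs from 63.8 to 195.9 RPKM.

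In cytosol footprints Hmox1 stood at 24.4 and 55.8 RPKM in untreated cells and at 140.9 and 149.9 RPKM at 0.5 h. It gave 58.3 and 121.6 RPKM at 1 h, 89.5 and 124.3 RPKM at 2 h, and 155.4 and 155.2 RPKM at 4 h. The groups again did not overlap, but the lower library at 1 h lay just above the higher untreated one. Log2 changes were 1.95 (limma adjusted p = 0.0722) at 0.5 h, 1.17 (0.328) at 1 h, 1.49 (0.0897) at 2 h and 2.04 (SE 0.52, 0.0371) at 4 h. The mean of the 3 later times was 1.57 higher (SE 0.42, adjusted p = 0.0296). Leaving out any library of the 4 h comparison ended the call at 4 h (untreated replicates 1 and 2, adjusted p = 0.146 and 0.0705, and 4 h replicates 1 and 2, 0.136 and 0.179), and so did blanks read as 0 (0.0752). The call over the 3 times was lost without untreated replicate 1 (log2 change 0.99, adjusted p = 0.25) or 2 (0.058), 4 h replicate 1 (0.0514) or 2 (0.0571), 1 h replicate 2 (0.059) or 2 h replicate 2 (0.0627), and with blanks as 0 (0.0718). The change in the ER minus that in the cytosol was 0.46 (SE 0.55, adjusted p = 0.687), and this difference was -0.12 without cytosol untreated replicate 2.

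**Figure D1:**
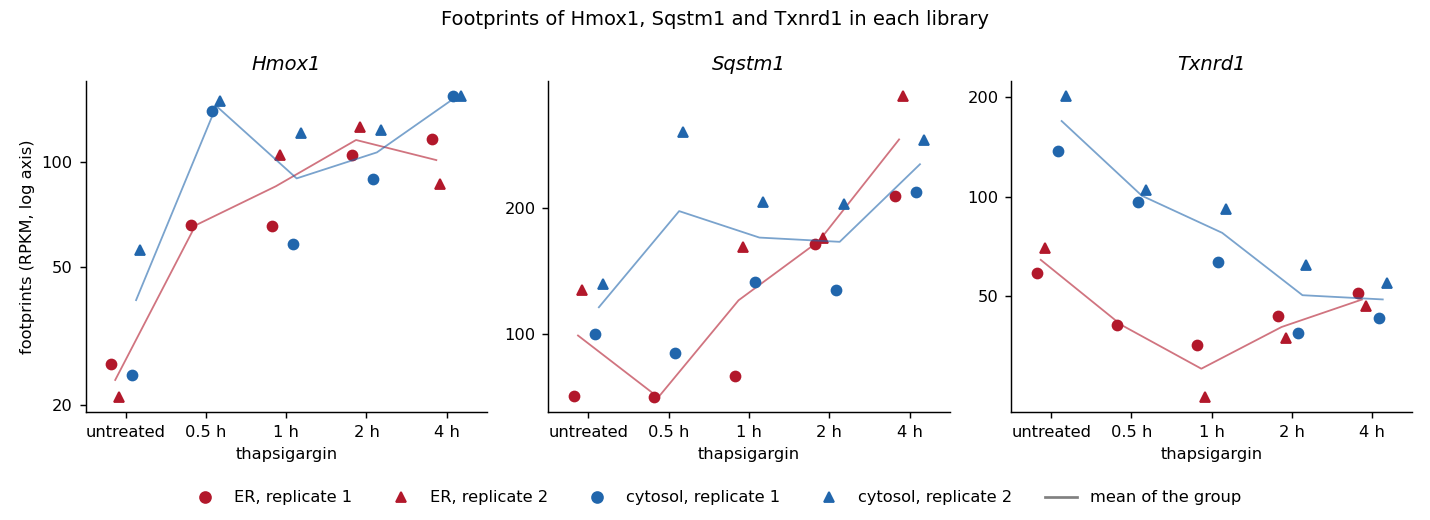
Footprints of Hmox1, Sqstm1 and Txnrd1 in RPKM on a log axis against time in thapsigargin. Each point is a library (circle, replicate 1, triangle, replicate 2), lines join group means, ER is red and cytosol blue. All treated Hmox1 points lie above the untreated ones of their fraction, and all treated Txnrd1 points lie below them.

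Sqstm1 (NM_011018) was called higher only in ER footprints at 4 h in the fits without a replicate block. In ER footprints it gave 71.2 and 127.2 RPKM in untreated cells, 70.7 RPKM at 0.5 h, 79.4 and 161.2 RPKM at 1 h, 163.7 and 169.2 RPKM at 2 h, and 212.8 and 368.8 RPKM at 4 h. Both libraries at 2 h and both at 4 h were above the untreated ones, as was replicate 2 at 1 h, while replicate 1 at 0.5 and 1 h was not. At 4 h the log2 change was 1.55 (SE 0.49, limma adjusted p = 0.032), and over the mean of the 3 later times it was 0.86 (adjusted p = 0.114). The call was lost without untreated replicate 1 (log2 change 1.13), 4 h replicate 1 (1.94) or 4 h replicate 2 (1.15). It was also lost under median centring (1.31, limma adjusted p = 0.0667) and with blanks as 0 (0.118). Centring used the genes listed in every library of the fit, which are not all the genes behind the median of 0.44 at 4 h.

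In cytosol footprints Sqstm1 gave 100.1 and 131.6 RPKM in untreated cells and 90.0 and 302.5 RPKM at 0.5 h. It gave 133.4 and 206.1 RPKM at 1 h, 127.1 and 204.5 RPKM at 2 h, and 218.3 and 289.3 RPKM at 4 h. Both libraries at 1 h and both at 4 h lay above the untreated ones, as did replicate 2 at 0.5 and 2 h. The highest value was that of replicate 2 at 0.5 h. The change of 1.12 at 4 h did not pass (SE 0.58, limma adjusted p = 0.239), nor did the mean of the 3 later times at 0.71 (adjusted p = 0.315). No time was tested against another treated time. Replicate 2 was the higher library at every time with 2 libraries in both fractions.

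Txnrd1 (NM_001042523), thioredoxin reductase of the cytosol, fell in cytosol footprints. It gave 137.1 and 200.99 RPKM in untreated cells, 96.4 and 104.7 RPKM at 0.5 h, 63.6 and 91.8 RPKM at 1 h, 38.7 and 62.1 RPKM at 2 h, and 43.1 and 54.7 RPKM at 4 h. All treated libraries lay below both untreated ones. The log2 change was -1.11 at 1 h (SE 0.45, limma adjusted p = 0.283), -1.74 at 2 h (SE 0.45, adjusted p = 0.0374) and -1.75 at 4 h (SE 0.45, adjusted p = 0.0391), and -1.53 over the 3 times (SE 0.37, adjusted p = 0.0189). The last call was lost without untreated replicate 2 (-1.26, adjusted p = 0.185) and kept under 15 of 16 alternatives. At 2 h the call was lost without untreated replicate 2 (adjusted p = 0.197) or either 2 h library (0.222 and 0.11), and at 4 h without untreated replicate 2 (0.208) or either 4 h library (0.166 and 0.15), as well as under median centring (0.0564 at 2 h, 0.0642 at 4 h) and with blanks as 0 (0.0718 and 0.0682).

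In ER footprints Txnrd1 gave 58.8 and 70.1 RPKM in untreated cells and 41.03 RPKM at 0.5 h. It gave 35.7 and 24.8 RPKM at 1 h, 43.5 and 37.3 RPKM at 2 h, and 51.2 and 46.6 RPKM at 4 h. These libraries also lay below the untreated ones, with the lowest values at 1 h and not at 4 h. The change did not pass at 1 h (-1.08, SE 0.42, limma adjusted p = 0.11) or over the 3 later times (-0.71, SE 0.35, adjusted p = 0.131). The fall in the cytosol was not shown to exceed that in the ER (difference 0.82, SE 0.47, adjusted p = 0.374).

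**Figure D2:**
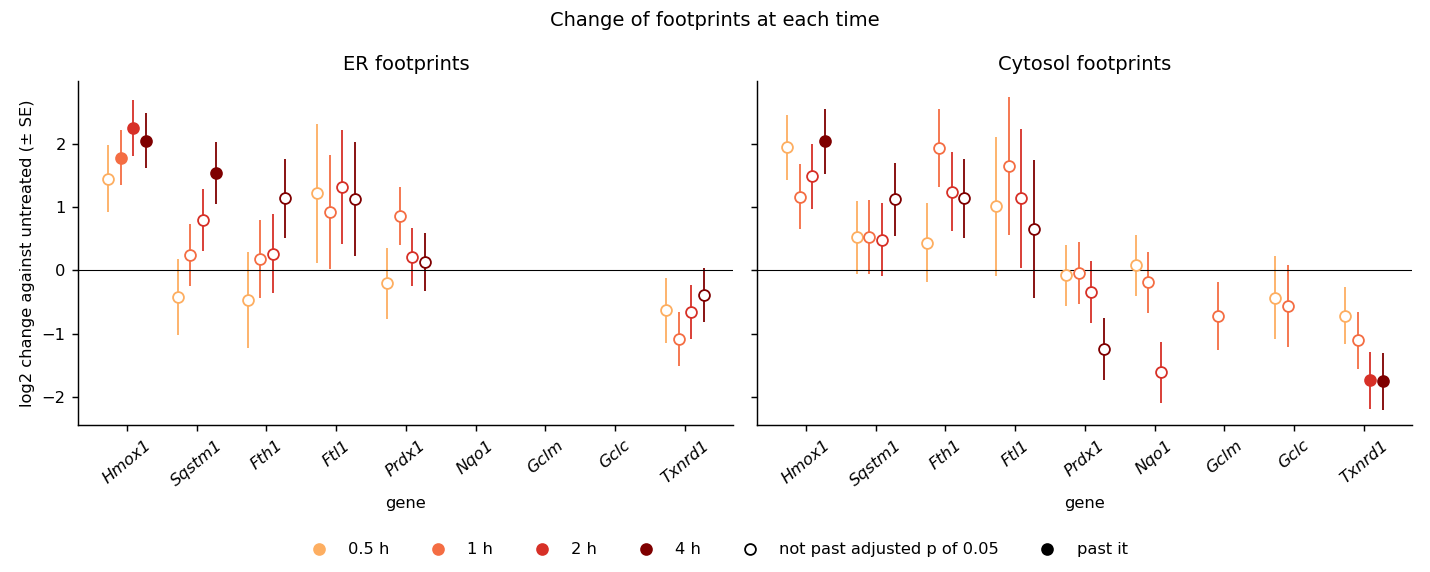
Log2 change of footprints against untreated cells (points, with the SE as bars) for each member that could be tested, by time, in the ER fraction (left) and the cytosol (right). Filled points passed the adjusted p threshold of 0.05, which holds for Hmox1 at 1, 2 and 4 h in the ER and at 4 h in the cytosol, for Sqstm1 at 4 h in the ER, and for Txnrd1 at 2 and 4 h in the cytosol.

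The ferritin chains had their highest footprint levels in replicate 1 from 1 h on. Neither passed a test with all libraries in the fits without a replicate block. With that block Fth1 passed in the ER at 4 h (limma adjusted p = 0.0379). It also passed in the cytosol over the mean of 1, 2 and 4 h (0.0461), and Ftl1 did so in the ER (0.0346). Fth1 (NM_010239), the chain that oxidises iron, gave 133.6 and 85.7 RPKM in untreated cytosol, 101.9 and 208.0 RPKM at 0.5 h, 794.5 and 213.6 RPKM at 1 h, 311.1 and 208.7 RPKM at 2 h, and 246.4 and 229.0 RPKM at 4 h. From 1 h on both libraries were above the untreated ones, and the replicates were furthest apart at 1 h. The change over the 3 later times was 1.44 (SE 0.51, limma adjusted p = 0.0749), and it passed without 1 h replicate 2 (1.76, adjusted p = 0.0284). In ER footprints Fth1 gave 112.3 and 87.5 RPKM in untreated cells, 71.0 RPKM at 0.5 h, 164.1 and 76.9 RPKM at 1 h, 187.9 and 75.7 RPKM at 2 h, and 409.9 and 117.4 RPKM at 4 h. Only at 4 h did both ER libraries lie above the untreated ones, a change of 1.14 (SE 0.62, adjusted p = 0.189). Without 4 h replicate 2 this ER change was 2.04 (adjusted p = 0.0433), and over the 3 later times it was 0.53 (adjusted p = 0.445).

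Ftl1 (NM_010240), the light chain, had replicates far apart after treatment. In cytosol footprints it gave 108.4 and 47.2 RPKM in untreated cells, 134.4 and 157.6 RPKM at 0.5 h, 669.5 and 76.7 RPKM at 1 h, 312.4 and 80.7 RPKM at 2 h, and 317.1 and 40.3 RPKM at 4 h. In ER footprints it gave 47.0 and 28.998 RPKM in untreated cells, 87.2 RPKM at 0.5 h, 131.8 and 38.2 RPKM at 1 h, 280.4 and 31.2 RPKM at 2 h, and 171.0 and 38.9 RPKM at 4 h. Replicate 1 was above both untreated libraries at every time in both fractions. From 1 h on replicate 2 lay between the untreated libraries, except at 4 h in the cytosol, where it lay below them. The change over the 3 later times was 1.13 in the ER (SE 0.74, limma adjusted p = 0.262) and 1.15 in the cytosol (SE 0.90, adjusted p = 0.393). Without 2 h replicate 2 the ER change was 1.65 and passed (adjusted p = 0.0411), and leaving out a library gave 0.61 to 1.65 in the ER and 0.56 to 1.74 in the cytosol. The deposited values include 3 further loci described as ferritin light chain 1-like, LOC100862446, LOC101056386 and LOC434624. Their footprint medians were 91.4, 65.8 and 41.5 RPKM. Reads of this sequence may be split among the loci or counted at more than 1 of them, which was not tested. Ftl1 and LOC100862446 had the same values in ER footprints at 1 h (131.8 and 38.2 RPKM). With the reads of all 4 loci summed the changes were 0.67 (limma adjusted p = 0.572) and 1.32 (adjusted p = 0.37). If reads were counted at several loci, this sum counts them more than once.

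Prdx1 (NM_011034), the most abundant member, gave 1270.2 and 1573.1 RPKM in untreated cytosol footprints, 1551.2 and 1155.5 RPKM at 0.5 h, 1075.3 and 1744.3 RPKM at 1 h, 967.1 and 1278.2 RPKM at 2 h, and 470.6 and 756.9 RPKM at 4 h. The groups overlapped until 2 h, and both libraries at 4 h lay below the untreated ones. The change at 4 h was -1.24 (SE 0.49, limma adjusted p = 0.14), and over the 3 later times -0.54 (adjusted p = 0.362). In ER footprints it gave 405.4 and 354.4 RPKM in untreated cells, 328.7 RPKM at 0.5 h, 597.6 and 797.0 RPKM at 1 h, 286.5 and 676.1 RPKM at 2 h, and 338.7 and 513.3 RPKM at 4 h. Both libraries at 1 h were above the untreated ones (0.86, adjusted p = 0.229), and later groups overlapped them (0.41 over the 3 times, adjusted p = 0.433). A peroxiredoxin-1-like locus, LOC100862012, had a footprint median of 294 RPKM and may share reads with Prdx1. Summing both, with the limit given for Ftl1, gave -1.25 at 4 h in the cytosol (limma adjusted p = 0.151).

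**Figure D3:**
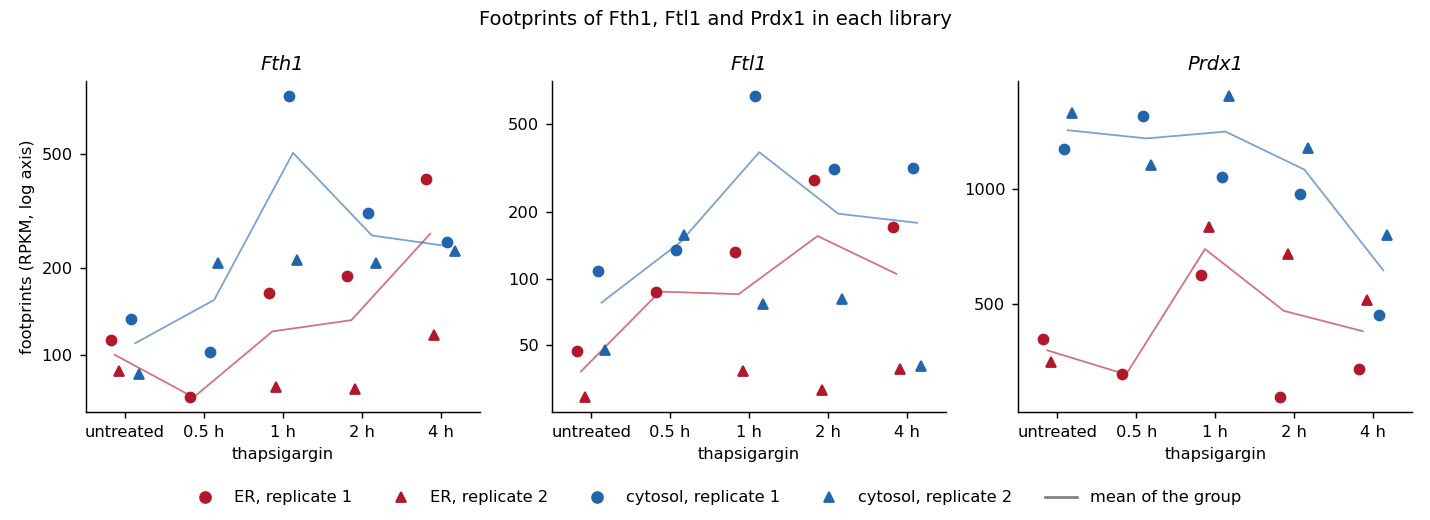
Footprints of Fth1, Ftl1 and Prdx1 in RPKM on a log axis against time in thapsigargin, with 1 point per library (circle, replicate 1, triangle, replicate 2), group means as lines, ER in red and cytosol in blue. The replicates of Ftl1 stand apart after treatment, with 669.5 against 76.7 RPKM in the cytosol at 1 h.

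Nqo1 (NM_008706) was low and was listed in 13 of 19 footprint libraries. In cytosol footprints it gave 23.4 and 35.7 RPKM in untreated cells, 35.6 and 26.4 RPKM at 0.5 h, 23.8 and 26.7 RPKM at 1 h, and 8.03 and 9.64 RPKM from 4 and 5 reads at 2 h. At 4 h replicate 2 gave 13.5 RPKM and replicate 1 was blank, with a ceiling of 14.5 RPKM. The libraries at 2 h lay below all earlier ones. That change was -1.61 (SE 0.48, limma adjusted p = 0.0634). In ER footprints it gave 12.8 and 6.93 RPKM in untreated cells and 22.6 and 26.03 RPKM in replicate 2 at 2 and 4 h, and it was blank in the other treated libraries with ceilings of 6.30 to 26.4 RPKM.

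Both subunits of glutamate-cysteine ligase were low. The modifier subunit Gclm (NM_008129) gave 25.7 and 33.5 RPKM in untreated cytosol footprints, 11.05 RPKM with a blank at 0.5 h, 21.8 and 13.9 RPKM at 1 h, and 11.6 and 11.4 RPKM in replicate 2 at 2 and 4 h. All of its listed treated libraries lay below the untreated ones, and the change at 1 h, the only time that could be tested, was -0.72 (SE 0.54, limma adjusted p = 0.573). In ER footprints Gclm gave 9.81 and 11.1 RPKM in untreated cells and was blank in every treated library, with ceilings of 5.21 to 26.4 RPKM. The catalytic subunit Gclc (NM_010295) gave 6.04 and 10.99 RPKM in untreated cytosol footprints, 3.24 and 9.93 RPKM at 0.5 h, 6.55 and 4.14 RPKM at 1 h (-0.56, SE 0.65, adjusted p = 0.724) and 2.23 RPKM in replicate 2 at 4 h. Both Gclc libraries at 2 h were blank, with ceilings of 2.49 and 2.60 RPKM, below both untreated values. In the ER it gave 7.20 and 5.37 RPKM in untreated cells and, after treatment, 2.99 RPKM in replicate 2 at 2 h alone. Its other treated ER libraries were blank. The highest of their ceilings, at 4 h in replicate 1, was 11.4 RPKM, above both untreated values, so not every blank shows a fall.

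Srxn1 (NM_029688) could be tested at no time. It was listed in 7 of 19 footprint libraries, at 4.43 to 10.9 RPKM from 4 to 63 reads. In untreated ER footprints it gave 6.45 and 9.78 RPKM, and all treated ER libraries were blank with ceilings of 9.19 to 46.5 RPKM. In the cytosol it gave 10.9 RPKM in untreated replicate 2, 4.43 RPKM at 0.5 h in replicate 1, 4.67 and 7.54 RPKM at 1 h, and 9.14 RPKM at 4 h in replicate 2. The cytosol values at 1 h lie below the listed untreated one, and every ER ceiling lies above the lower untreated ER value, so a fall there was not detectable at this depth.

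**Figure D4:**
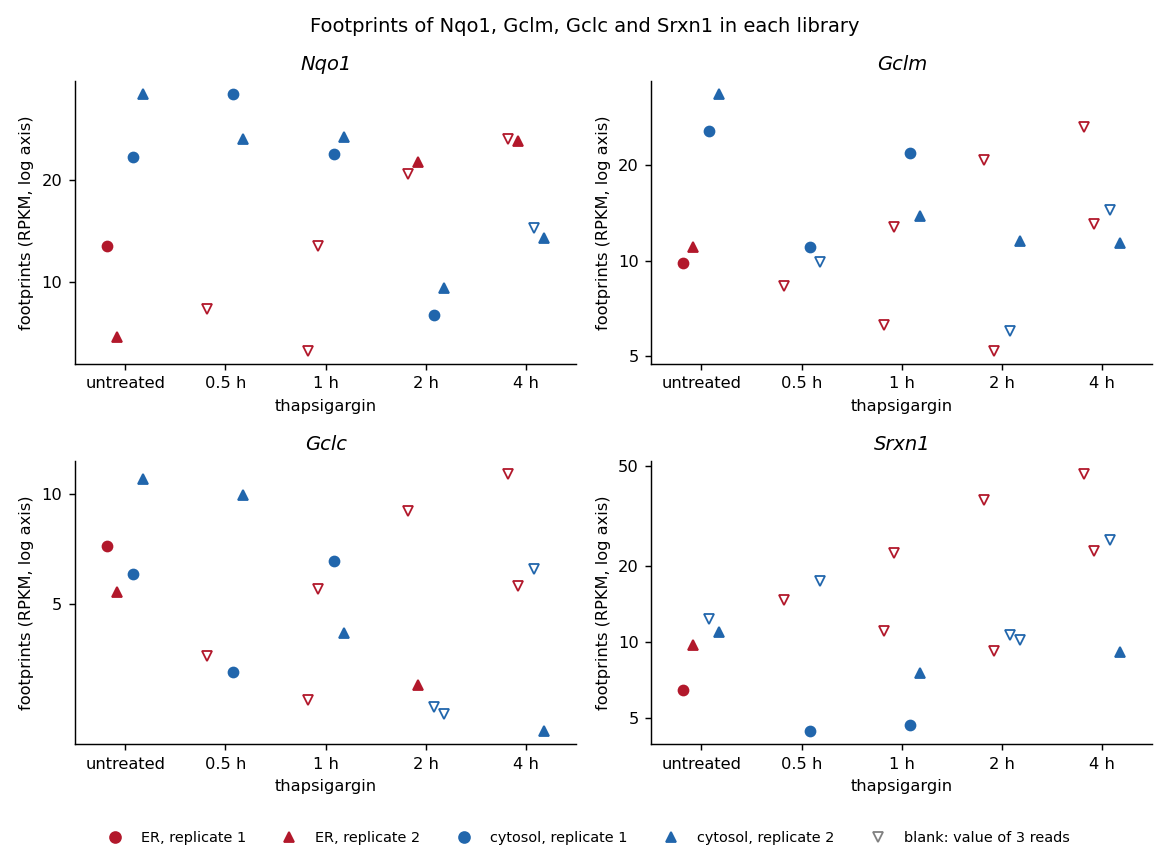
Footprints of Nqo1, Gclm, Gclc and Srxn1 in RPKM on a log axis against time in thapsigargin, with 1 filled point per library that lists the gene (ER red, cytosol blue). Circles are replicate 1 and triangles replicate 2. Open triangles that point down are blank libraries, drawn at the value of 3 reads, and most of those of treated Srxn1 lie above its highest value of 10.9 RPKM.

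The distribution between the fractions was compared in untreated cells. Of 9 members tested 2 were lower in ER than in cytosol footprints and 0 were higher, against 6.69% lower and 7.88% higher among all genes, whose median was -0.79 on the log2 scale. In all genes 456 higher and 387 lower became 480 and 120 under median centring and 469 and 123 without the weight. Prdx1 had a log2 ratio of -1.90 (SE 0.48, limma adjusted p = 0.0149) and Txnrd1 of -1.36 (SE 0.41, adjusted p = 0.0366). Nqo1 at -1.52 (adjusted p = 0.0558), Gclm at -1.41 (0.0873), Ftl1 at -0.94 (0.539), Hmox1 at -0.63 (0.316), Gclc at -0.35 (0.653), Sqstm1 at -0.27 (0.718) and Fth1 at -0.11 (0.904) did not pass. The last 4 values lie above that of the median gene. The call of Prdx1 was lost without ER untreated replicate 1 (adjusted p = 0.0594) or 2 (0.139) or cytosol untreated replicate 2 (0.0951), and under median centring (-1.66, 0.0523). That of Txnrd1 was lost without the same libraries (0.156, 0.165 and 0.193), under median centring (-1.13, 0.109), with blanks as 0 (0.0905) and without the weight per fraction (-1.14).

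The ER share of footprints, the ER value divided by the sum of both fractions in libraries of the same number, was set beside that of all genes. The median gene had a share of 35.2% and 38.5% in untreated cells and of 52.3% and 53.8% at 4 h. These medians rest on different genes, 6827 and 7221 in untreated cells and 3269 and 5223 at 4 h. The part of this difference in the rise was not tested. Over the 2046 genes that could be tested for it, the median log2 change of the ER-to-cytosol ratio was 0.36. Txnrd1 had 30.0% and 25.8% in untreated cells and 54.3% and 45.99% at 4 h, and Prdx1 24.2% and 18.4% against 41.8% and 40.4%. Both genes were below the median gene in untreated cells, and Txnrd1 had reached it at 4 h in replicate 1. Hmox1 had 51.7% and 27.4% in untreated cells and 42.9% and 35.8% at 4 h, below the median gene in both pairs at 4 h and on either side of it in untreated cells. Over all 9 pairs Sqstm1 ranged from 37.3% to 56.3% and Fth1 from 17.1% to 62.5%. No member's change of the ER-to-cytosol ratio passed limma's test (0 of 6, 0 at an unadjusted p under 0.05), with 0.391% of all genes higher and 8.70% lower. Prdx1 at 0.95 (adjusted p = 0.381) and Fth1 at -0.91 (adjusted p = 0.585) had the largest values among the 6.

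**Figure D5:**
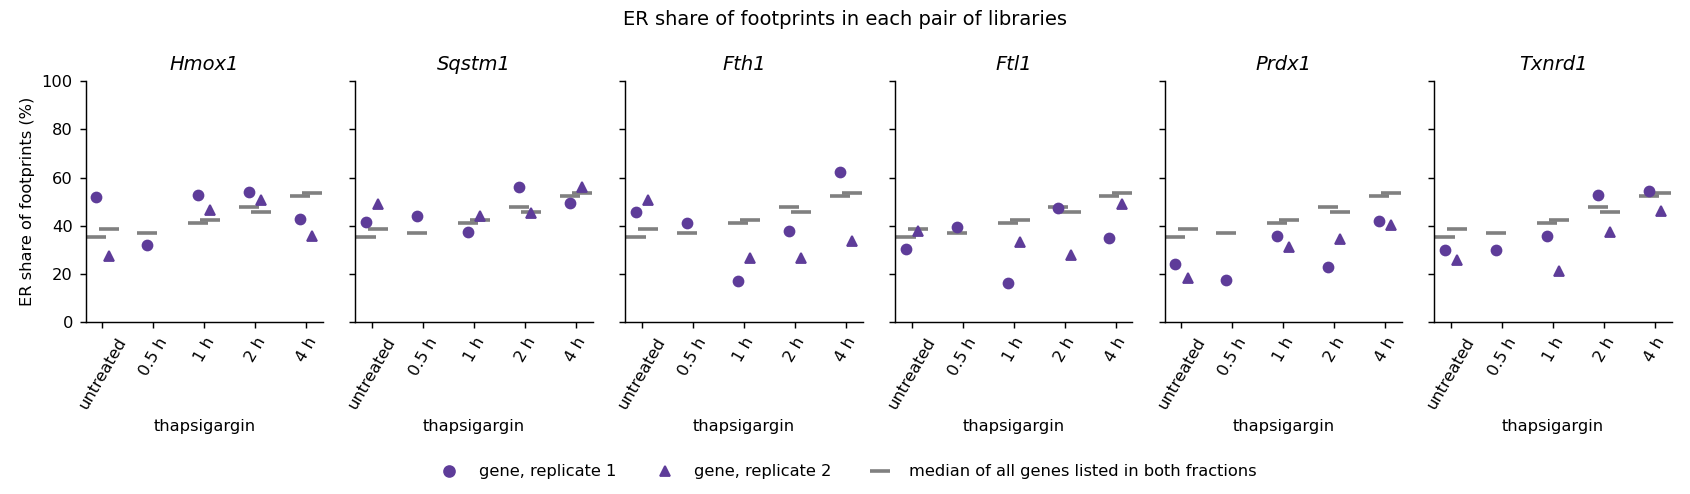
ER share of footprints in percent for 6 members at each time in thapsigargin, with 1 point per pair of libraries (circle, replicate 1, triangle, replicate 2) and grey bars at the median of all genes listed in both fractions. The grey bars go from 35.2% and 38.5% in untreated cells to 52.3% and 53.8% at 4 h, and Hmox1 lies below them at 4 h. Each bar rests on the genes listed in that pair, which differ between times.

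The mRNA libraries were too shallow to follow most members, and replicate 1 lists genes from 4 reads while replicate 2 lists them from 1 read. Hmox1 mRNA was listed in 7 of 20 libraries with at most 4 reads, Nqo1 in 3 with at most 2, Gclm in 6 with at most 5 and Srxn1 in 7 with at most 4. Sqstm1 and Ftl1 were listed in 19, Txnrd1 in 18, Prdx1 and Fth1 in 17 and Gclc in 16 libraries. Fth1 mRNA in the untreated cytosol was 29.6 RPKM in replicate 1 and 796 RPKM in replicate 2, and Ftl1 mRNA 33.1 and 751 RPKM. Replicate 2 exceeded replicate 1 for both ferritin mRNAs in every group with 2 values, the reverse of Ftl1 footprints from 1 h on.

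No member passed in mRNA in the fits without a replicate block. The calls of Prdx1 and Ftl1 that the block adds in cytosol mRNA are given at the end. In cytosol mRNA limma called 0 of 4 or 5 members at each time, with 1 member at an unadjusted p under 0.05 at 4 h and 1 over the mean of the 3 times, where 0.0459% of all genes fell at 4 h, 0.0623% rose and 0.187% fell over the mean, and 0% passed elsewhere. In ER mRNA 0 of 1 to 3 members passed, with 0 at an unadjusted p under 0.05, and 0% of all genes. The ER-to-cytosol ratio of mRNA in untreated cells passed for 0 of 3 members and 0% of all genes. Prdx1 mRNA in the cytosol went from 77.9 and 168 RPKM in untreated cells to 16.1 and 4.97 RPKM from 6 and 1 reads at 4 h, a log2 change of -3.52 (SE 1.04, adjusted p = 0.131). Both libraries at 4 h lay below the untreated ones. Over the 3 times Prdx1 had -2.17 (adjusted p = 0.300), Ftl1 -1.21 (adjusted p = 0.626, and 1.02 as the change without untreated replicate 2), Txnrd1 -1.005 (adjusted p = 0.609) and Sqstm1 -0.55 (adjusted p = 0.769), beside a median of -0.71 for all genes. Translational efficiency, the footprint change minus the mRNA change, could be tested in the cytosol for 4 members, of which 0 passed and 0 had an unadjusted p under 0.05 (0.0780% of all genes higher, 0% lower). It was -0.53 for Txnrd1 (SE 0.69, adjusted p = 0.951), 2.36 for Ftl1 (SE 1.78, adjusted p = 0.863), 1.63 for Prdx1 (SE 0.89, adjusted p = 0.752) and 1.26 for Sqstm1 (SE 0.80, adjusted p = 0.817). Hmox1 had too few mRNA values for this test. In the ER fraction 1 member, Fth1, could be tested and did not pass, with an unadjusted p above 0.05 (0.295% of all genes higher, 0.884% lower).

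Nfe2l2, the gene of NRF2, had more footprints in the ER fraction after treatment. It gave 31.2 and 24.8 RPKM in untreated cells, 40.9 RPKM at 0.5 h, 67.5 and 56.8 RPKM at 1 h, 41.5 and 79.0 RPKM at 2 h, and 80.8 and 117.6 RPKM at 4 h. All treated libraries were above both untreated ones. The log2 change was 1.77 at 4 h (SE 0.46, limma adjusted p = 0.0123) and 1.30 over the 3 times (SE 0.37, adjusted p = 0.0185). The 4 h call was lost without untreated replicate 1 (0.0597), untreated replicate 2 (0.0987) or 4 h replicate 2 (0.0703) and with blanks as 0 (0.058), and the other call without untreated replicate 1 (0.0899) or 2 (0.180) and with blanks as 0 (0.0752). In cytosol footprints it gave 50.5 and 58.2 RPKM in untreated cells, 97.8 and 110.5 RPKM at 0.5 h, 41.3 and 135.0 RPKM at 1 h, 69.2 and 113.4 RPKM at 2 h, and 77.5 and 134.8 RPKM at 4 h, a change of 0.90 (SE 0.57, adjusted p = 0.342). Keap1 was listed in 13 of 19 footprint libraries at 3.05 to 12.3 RPKM and Bach1 in 8 at 2.24 to 7.16 RPKM, too few for these tests at 4 h.

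The wider pathway was read from 77 other genes in 8 lists, which cover NRF2 regulators, glutathione, thioredoxins and peroxiredoxins, NADPH supply, peroxide removal, detoxification, haem and iron, and autophagy. In ER footprints at 4 h 39 were tested, of which 6 rose and 2 fell, beside background shares of 21.5% higher and 6.07% lower, with a median of 0.32 beside 0.44 for all genes. Txnip, which binds and inhibits thioredoxin, had the largest rise at 4.37 (SE 0.38, limma adjusted p = 9.5e-06). Maff, a small MAF partner of NRF2, rose by 3.06, the autophagy receptor Optn by 2.34 and the glutathione peroxidase Gpx1 by 2.24. The transferrin receptor Tfrc, which imports iron, fell by 2.18, and the peroxiredoxin of the ER, Prdx4, fell by 1.46. Optn lost its call without untreated replicate 1 (adjusted p = 0.0516) and with blanks as 0 (0.42), and Prdx4 without untreated replicate 1 (0.103) or 2 (0.109) or 4 h replicate 1 (0.123), while Txnip, Maff, Gpx1 and Tfrc passed under each alternative that could be fitted. Without untreated replicate 1 the 8 called genes became 4, and without untreated replicate 2 they became 5.

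Over the mean of 1, 2 and 4 h in the ER 32 of the 77 genes were tested, of which 6 rose and 5 fell, beside 18.6% higher and 11.8% lower among all genes. The counts of single lists stand beside the same shares. Of 8 regulators 3 could be tested, and these 3 rose: Maff (2.11), Rbx1, part of the ligase that KEAP1 serves (1.53), and Nfe2l2. A gene needed a value in every library compared, and the lists were chosen with earlier results of these data known. The count of regulators is therefore a description. Txnip at 3.56 and Gpx1 at 2.35 rose as well. The 5 that fell had changes of -2.16 for Tfrc, -1.34 for Ugdh, which makes the substrate of glucuronidation, -1.15 for the pentose phosphate enzyme Tkt, -1.11 for Prdx4 and -1.002 for the superoxide dismutase Sod1 (adjusted p = 0.0474), which was named after its value was seen. The call of Sod1 was lost without any 1 of 7 libraries, at adjusted p from 0.055 (2 h replicate 1) to 0.338 (untreated replicate 2), and kept without 1 h replicate 1. It was also lost with blanks as 0 (0.0925) and without the weight (0.102). Without untreated replicate 1 the calls of Maff (adjusted p = 0.0975), Rbx1 (0.0515), Ugdh (0.152), Tkt (0.171) and Prdx4 (0.146) were lost, without untreated replicate 2 those of Rbx1 (0.117), Ugdh (0.180), Tkt (0.186) and Prdx4 (0.170), and without 4 h replicate 1 that of Ugdh (0.0532). Glutathione genes had 1 of 4 higher and 0 lower, thioredoxins and peroxiredoxins 1 higher and 1 lower of 6, and haem and iron genes 0 higher and 1 lower of 4. The 11 called genes became 3 without untreated replicate 1, 4 without untreated replicate 2, and 7 without the weight per fraction or with blanks as 0.

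In cytosol footprints at 4 h 2 of 47 tested pathway genes rose and 1 fell, beside 4.58% higher and 3.32% lower among all genes. They are Txnip (3.60, limma adjusted p = 0.00372), Gpx1 (2.56) and the iron regulatory protein Aco1, which fell by 1.78. Without 4 h replicate 2 all 3 calls were lost (adjusted p = 0.0536 for Txnip, 0.0875 for Gpx1, 0.131 for Aco1), and those of Gpx1 and Aco1 also without 4 h replicate 1 (0.0756 and 0.167) or untreated replicate 2 (0.080 and 0.175), that of Aco1 also without untreated replicate 1 (0.116). Over the mean of 1, 2 and 4 h 4 of 46 rose, namely Txnip (3.12), the ER-resident Gpx8 (2.62), Gpx1 (2.49) and Rbx1 (1.41). There 4 fell, beside 9.43% higher and 7.15% lower among all genes, with changes of -1.82 for Ugdh, -1.74 for Ireb2, the other iron regulatory protein, -1.57 for the monothiol glutaredoxin Glrx3 and -1.27 for Aco1. Txnip and Gpx1 passed under 16 of 16 alternatives, and Gpx8 lost its call without untreated replicate 2 (1.62, adjusted p = 0.161). Rbx1, Ireb2, Glrx3, Aco1 and Ugdh lost theirs without untreated replicate 1 (adjusted p = 0.184, 0.229, 0.135, 0.188 and 0.0726) and without untreated replicate 2 (0.116, 0.161, 0.177, 0.198 and 0.146). All but Ugdh also lost it without several single treated libraries, at adjusted p from 0.0506 (Aco1 without 4 h replicate 2) to 0.0932 (Ireb2 without 1 h replicate 2). The median was -0.22 beside -0.10 for all genes. The count of 3 at 4 h became 0 without 4 h replicate 2, 1 without 4 h replicate 1 or untreated replicate 2, and 5 without untreated replicate 1 or under median centring. The count of 8 over the 3 times became 3 without untreated replicate 2 and 4 or 5 without untreated replicate 1, 2 h replicate 1 or 4 h replicate 1, or replicate 2 of 1, 2 or 4 h, and 4 with blanks as 0.

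Genes with a time course most like that of Hmox1 were ranked by the mean absolute difference of their log2 footprint changes at up to 8 points, 4 times in each fraction, over 3414 genes that share at least 6 points. The closest were Gtf2h5 at 0.19, Bccip and Ier5 at 0.22, Helz at 0.24 and Ufsp2 at 0.26. Bccip, Ier5 and Helz shared all 8 points, but Gtf2h5 and Ufsp2 only 6. Gtf2h5 had no value in the cytosol at 4 h or the ER at 2 h, and Ufsp2 none in the ER at 2 or 4 h. Among the members Ftl1 ranked 267, Sqstm1 719, Fth1 802, Prdx1 1846 and Txnrd1 3146, and Nfe2l2 ranked 350. All points in a fraction share their untreated libraries, so this is a description with no test.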

How the data were processed

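The authors deposited 1 table of RPKM values with 1 column per library; the unit was read from the values, since the file headers give none. Per the submitters' processing notes reads were aligned with Bowtie (no version) to hg19, although the listed genes are mouse genes, so no coordinates come from the table. Dividing out depth and length gave whole reads for 13206 of 13206 genes with values in at least 2 libraries (largest distance from a whole number 7.19e-07). Library totals show a weight per fraction and time inside the values, which the labels do not describe: ER footprint libraries sum to 32.1% to 45.98% of a full RPKM library, and those of the cytosol to 48.5% to 65.8%. In ER footprints the sum was 45.98% and 45.3% in untreated cells and 32.1% at 0.5 h. In cytosol footprints it was 52.5% and 54.0% in untreated cells and 65.8% and 63.7% at 0.5 h. Each comparison of a time with untreated cells therefore includes a shift shared by all genes of the fraction. Blanks were read as not measured.

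Time courses, translational efficiency and ER-to-cytosol ratios were fitted with limma 3.58.1 (R 4.3.3), with a variance trend and no robust option, on log2(RPKM + 1). Genes needed a mean of at least 1 RPKM, with blanks as 0 in that mean only, and a value in every library of the groups compared. P-values are 2-sided and Benjamini-Hochberg adjusted over all genes tested. The fits over time were also run on simulated data with independent noise in each library and changes planted only in genes with no blanks. Replicate differences shared between groups and changes in genes with blanks were not simulated. Members and gene lists were chosen with earlier results of these data known. All 10 members are named, as are Nfe2l2, Keap1 and Bach1, and of the pathway lists the 4 largest calls in each direction. Alternatives were another pseudocount, no filter or one at 50 RPKM, median centring, blanks as 0, no weight, a replicate block, the spread from tested genes only, like loci summed, and each library left out. Intervals and ceilings cover counting error only.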

Additional observations from a re-analysis of the deposited data

How the results depend on the processing

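Under the alternatives other than leaving out a library, 206 counts of members called stayed within 1.5 times the reported one and 20 did not. Most of the 206 are counts of 0 that stayed 0, as in the mRNA fits, so they say little about how stable the calls are. With blanks read as 0, ER footprints had 2, 3, 3 and 4 called members at 0.5, 1 and 2 h and over the mean of 1, 2 and 4 h, cytosol footprints 0, 0 and 1 at 2 and 4 h and over the mean, and the untreated ER-to-cytosol ratio 1. With median centring, ER footprints at 4 h had 1, cytosol footprints 0 at 2 h and 1 at 4 h, and the ratio 0. Without the weight per fraction the ratio had 1, and with the spread from tested genes only, chosen after seeing the data, cytosol footprints at 2 h had 2, since Nqo1 passed (adjusted p = 0.0403). Leaving out a library gave 0 to 1 in the ER at 1 h, 1 to 2 at 2 h, 4 h and over the mean, 0 to 1 in the cytosol at 2 and 4 h, 0 to 2 over the mean, and 0 to 2 for the ratio. Sqstm1 in cytosol mRNA turned to 0.0377 under median centring, and the ratio change of Hmox1 ran from -0.12 to 1.04 with a library left out. The untreated ratio of Fth1 turned to 0.12 under median centring and 0.11 without the weight. With a library left out it ran from -0.43 to 0.21, that of Sqstm1 from -0.68 to 0.15 and that of Gclc from -0.73 to 0.0376, and Ftl1 in cytosol mRNA from -3.998 to 0.46 at 4 h and -3.44 to 1.02 over the mean. The causes were not tested. Over all genes, the 681 calls of ER footprints over the mean of 1, 2 and 4 h became 253 without untreated replicate 2, and the 684 of cytosol footprints became 95 without untreated replicate 2. At 4 h the 873 of the ER became 300 without untreated replicate 1, and the 364 of the cytosol 22 without untreated replicate 2. Depth limits Srxn1, Gclc, Gclm, Nqo1 and nearly all mRNA values.

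Replicate numbers are not stated to pair the samples, and there are only 2 of them. Replicate differences of footprints correlated at 0.13 to 0.28 between untreated cells and each time, with -0.19 for the cytosol at 0.5 h, and those of mRNA at 0.43 to 0.69. With the replicate block ER footprints had 3 called members over the mean, cytosol footprints 1 at 0.5 h and 3 at 2 h, and cytosol mRNA 2 at 4 h and 1 over the mean. The added calls are Sqstm1 (adjusted p = 0.0351) and Ftl1 (0.0346) over the mean in the ER, Hmox1 at 0.5 h (0.0238) and 2 h (0.0304) and Nqo1 at 2 h (0.0337) in the cytosol, and in cytosol mRNA Prdx1 at 4 h (0.000702) and over the mean (0.00687) and Ftl1 at 4 h (0.0222). Fth1 passed in the ER at 4 h (0.0379) and in the cytosol over the mean (0.0461), and the untreated ratio of Nqo1 passed (0.0314). Called pathway genes in cytosol footprints numbered 10 at 4 h and 13 over the mean. Over all genes it gave 1123 calls in cytosol footprints over the mean and 779 at 4 h. With the 0.5 h numbers crossed, chosen after seeing the data, cytosol footprints at 0.5 h also had 1, and 323 called genes in all, against 315 with the labelled block and 185 without a block.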
